A study of Mus musculus with 9 samples.

Results

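The genes described are the numbered Zfp genes of the mouse, protein-coding genes whose symbol is Zfp followed by digits, most of which encode DNA-binding proteins built from repeated zinc fingers. They were taken by symbol and biotype from a table of 54532 genes measured in brain cortex. Of 365 such genes, 11 lie on chromosome 8 between 36.02 and 78.11 Mb, the region that the study mapped for brain infarct volume, and were left out. Of the other 354, the 245 with a mean of at least 1 FPKM over all 9 mice are described here. FPKM counts fragments per kilobase of gene after scaling for the size of the library, so levels can be compared between genes of unlike length. The remaining 109 genes were under 1 FPKM, and 11 of them had no read in any library. The members were thus chosen by their mean level, and the level itself is a description. Just inside the limit were Zfp53 at 1.01, Zfp551 at 1.01 and Zfp85 at 1.02 FPKM, and just outside it were Zfp169 at 0.983, Zfp759 at 0.964 and Zfp599 at 0.958 FPKM. In 7 members (Zfp296, Zfp449, Zfp53, Zfp551, Zfp711, Zfp85 and Zfp945) the mean of the 2 lower strains was under 1 FPKM, so they passed through the strain in which they were highest.

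The 9 libraries came from male mice 8 to 12 weeks old, 3 of each of 3 unmanipulated inbred strains, with no treatment named. B6 (C57BL6/J) is a classical laboratory strain and the source of the mouse reference genome, C3H (C3H/HeJ) is another classical strain, and WSB (WSB/EiJ) is a strain derived from wild mice. The study had asked which genes of the mapped region differ between the strains, and each pair of strains was compared here over all genes. Mice of an inbred strain are near-identical in genome, so each group stands for 1 genotype. Whether the mice of a strain shared a litter or cage is not given in the sources used here.

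Zinc fingers of the C2H2 type are short loops held together by a zinc ion that is bound by a pair of cysteines and a pair of histidines. Each finger touches a few bases of DNA, and rows of fingers let a protein read a long site. Many mammalian members also carry a KRAB box at the amino end, which recruits TRIM28 and through it enzymes that lay down repressive chromatin. KRAB zinc finger proteins are best known for silencing endogenous retroviruses and other repeats and for guarding imprints. Their genes sit in tandem clusters that grow and shrink between mouse lineages, and brain is among the tissues in which many are expressed.

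The finger repeat itself is shown for 5 members that carry the results, 2 with the largest strain differences (Zfp933 and Zfp605) and 3 from the chromosome 7 cluster described further on (Zfp109, Zfp180 and Zfp93). Each run is 78 bases of reference coding sequence from GENCODE M21 on GRCm38, read 5′ to 3′ in the direction of the gene, with the codons of the zinc-binding cysteines and histidines in capitals.
Zfp933: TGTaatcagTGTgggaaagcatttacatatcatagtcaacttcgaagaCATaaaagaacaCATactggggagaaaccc
Zfp605: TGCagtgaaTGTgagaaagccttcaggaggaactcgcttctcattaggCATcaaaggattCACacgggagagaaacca
Zfp109: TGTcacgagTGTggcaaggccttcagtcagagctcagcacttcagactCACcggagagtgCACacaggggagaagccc
Zfp180: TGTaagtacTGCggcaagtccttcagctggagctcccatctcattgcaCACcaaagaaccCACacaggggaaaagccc
Zfp93: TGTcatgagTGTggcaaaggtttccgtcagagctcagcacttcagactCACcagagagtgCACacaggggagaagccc
They lie at Zfp933 chr4:147826664-147826741 (minus strand, exon 4 of 4), Zfp605 chr5:110128104-110128181 (plus strand, exon 5 of 5), Zfp109 chr7:24229053-24229130 (minus strand, exon 3 of 3), Zfp180 chr7:24105115-24105192 (plus strand, exon 5 of 5) and Zfp93 chr7:24275450-24275527 (plus strand, exon 4 of 4). Zfp109 and Zfp93, from the same cluster, shared 72 of the 78 bases (92.3%), while every other pair of the 5 shared 57.7% to 67.9%. Each lies in the last exon of its transcript.

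By sequence the 245 genes were a mixed set. The translated coding sequence held a median of 10 finger matches, from none in 5 members (Zfp330, Zfp365, Zfp503, Zfp703 and Zfp839) to 36 in Zfp142. A match is the pattern of C, 2 to 4 residues, C, 12 residues, H, 3 to 5 residues and H. A KRAB pattern was found in 100 members, which is 40.8%. A KRAB box that departs from this pattern was not counted, so members without a match may still carry one. Among the 109 genes under 1 FPKM it was found in 76, which is 69.7%, with a median of 11 finger matches. The median GC content of the longest transcript was 46.3% in the members and 50.2% in all coding genes of at least 1 FPKM. Members were on 20 chromosomes, with 70 on chromosome 7 and 29 on chromosome 17.

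Most members were expressed at a low level. The median of their mean levels was 3.12 FPKM, against 7.38 FPKM for coding genes of at least 1 FPKM, with 178 members between 1 and 5 FPKM, 43 between 5 and 10, and 24 at 10 or more. Every member had at least 22 reads in every library. The highest was Zfp365, a partner of DISC1 and without a finger match here, at 114 ± 12.3 FPKM in B6, 93.9 ± 7.74 in C3H and 85.9 ± 19.9 in WSB (mean ± SD, n = 3 here and below). Next came Zfp706, at 49.7 ± 1.26, 53.6 ± 1.96 and 47.5 ± 2.64 FPKM in the same order. Zfp428 followed with 30.2 ± 1.74, 35.9 ± 6.32 and 29.9 ± 3.05 FPKM. Zfp771 had 26.8 ± 2.39, 34.8 ± 2.996 and 29.9 ± 1.77 FPKM, and Zfp106 had 20.9 ± 0.359, 24.6 ± 0.717 and 21.7 ± 1.11 FPKM. None of these 5 genes passed the main test between any 2 strains, and a result for Zfp106 under another setting is given below.

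Between 16317439 (WSB) and 21562429 (B6) reads fell on genes per library. Defining genes of cortical neurons, interneurons and glia were present in all 9 libraries, and no marker of any list was at 0. The summed level of 5 blood genes was 632 to 1010 FPKM in C3H, against 217 to 254 in B6 and 249 to 329 in WSB, and 3 of the 5 were higher in C3H than in B6 by the test. The sum of 4 oligodendrocyte genes was 316 to 451 FPKM in WSB, 573 to 738 in B6 and 545 to 727 in C3H. Over 4 hippocampal genes it was 61.6 to 71.4 FPKM in WSB, 33.3 to 51.0 in B6 and 45.8 to 48.7 in C3H. This sum does not stand for each of the 4 genes. Their median log2 fold change was 0.44 in WSB against B6 but -0.16 in WSB against C3H, and 1 gene passed as higher in each. The sum of 4 microglial genes was 43.9 to 48.3 FPKM in WSB, 50.3 to 58.2 in B6 and 51.9 to 61.3 in C3H, and 1 of them was lower in WSB than in B6 by the test. That of 4 interneuron genes was 563 to 693 FPKM in WSB, 526 to 558 in B6 and 533 to 609 in C3H. The sums of choroid plexus genes (63.5 to 756 FPKM in B6) and of striatal genes (105 to 432 FPKM in B6) varied widely inside strains. In WSB against C3H, 3 blood genes passed as lower in WSB, as did 1 oligodendrocyte, 1 astrocyte and 1 cortical excitatory neuron gene. In WSB against B6, 1 blood gene passed as higher and 1 as lower. The part of these differences between strains in the results below was not tested. In bulk tissue, fewer cells of a type and less RNA per cell cannot be told apart. Among the libraries, C3H replicate 2 stood apart from the other C3H mice in its levels of Zfp genes, as given below. The counts of calls that involve C3H are given with and without it, but most medians of gene groups only with it.

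Between WSB and B6, 12 of the 245 Zfp genes passed the test, 7 higher and 5 lower in WSB. This is 4.90%, beside 5.9% of all 20746 genes tested (2.81% higher and 3.09% lower in WSB). The test was limma on log2(FPKM + 0.1), two-sided, with Benjamini-Hochberg adjustment over all genes tested and a threshold of 0.05. An unadjusted p under 0.05 was reached by 43 members, which is 17.6% beside 20.4% of all genes. The 3 WSB values lay wholly above the 3 B6 values in 39 members and wholly below them in 23, which is 25.3% of the members beside 26.0% of all genes. The share of Zfp genes that differed was therefore near that of genes at large. Because 1 mouse fewer moved the count by up to 3-fold, the counts without each mouse are given as well. They were 7, 4 and 6 without B6 replicates 1, 2 and 3, and 8, 8 and 6 without WSB replicates 1, 2 and 3. These are 1.63% to 3.27% of the members, beside 3.13% to 3.97% of all genes in the same fits.

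The member with the largest difference was Zfp933 (chr4:147822986-147848366, minus strand), a KRAB zinc finger gene with 12 finger matches. It had 5.10, 3.91 and 3.34 FPKM in B6, 0.919, 1.03 and 0.809 in C3H, and 1.90, 1.11 and 1.06 in WSB. Every B6 mouse was above every WSB and C3H mouse. The mean was 3.03-fold lower in WSB than in B6, a change of -1.56 on the log2 scale (standard error 0.25, limma adjusted p = 0.0125). The call was lost only without B6 replicate 2, at an adjusted p of 0.0531. In C3H the mean was 4.48-fold lower than in B6, a change of -2.03 on the log2 scale (standard error 0.18, limma adjusted p = 0.000966), and this call passed without any 1 of the 6 mice. Zfp933 was the member farthest below B6 in both comparisons, which share the B6 mice.

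Zfp236, a long gene with 30 finger matches (chr18:82593593-82692883, minus strand), had 4.21, 3.904 and 4.04 FPKM in B6, 3.05, 3.29 and 3.11 in C3H, and 2.10, 2.30 and 2.56 in WSB. The 3 strains did not overlap, with B6 highest and WSB lowest. Its level was 1.75-fold lower in WSB than in B6, a change of -0.78 on the log2 scale (standard error 0.11, limma adjusted p = 0.00807). In C3H the change from B6 was -0.35 (limma adjusted p = 0.0903), which did not pass.

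Of the members higher in WSB, Zfp692 (the AICAR responsive element binding protein, chr11:58307069-58314627, plus strand) had 11.8, 12.4 and 11.7 FPKM in B6, 13.00, 12.4 and 12.6 in C3H, and 19.8, 20.1 and 17.7 in WSB. The B6 and C3H mice lay close together and all 3 WSB mice lay above them, 1.61-fold over B6 on the mean, a change of 0.68 on the log2 scale (standard error 0.08, limma adjusted p = 0.00263). Zfp612 (chr8:110079746-110092741, plus strand), with the KRAB pattern and 16 finger matches, had 7.97, 6.98 and 6.97 FPKM in B6, 7.95, 9.84 and 7.03 in C3H, and 13.05, 11.2 and 10.95 in WSB. It was 1.60-fold higher in WSB than in B6, a change of 0.67 on the log2 scale (standard error 0.10, limma adjusted p = 0.00930), and the C3H values overlapped those of B6. Zfp414, with 2 finger matches, had 5.51, 7.25 and 6.59 FPKM in B6, 8.77, 8.50 and 9.99 in C3H, and 10.4, 10.4 and 10.3 in WSB. WSB was 1.61-fold above B6, a change of 0.69 on the log2 scale (standard error 0.11, limma adjusted p = 0.0119). Exon bases that make up 30.4% of Zfp414 are shared with Gm20507 on the same strand, so its reads are uncertain. Zfp236, Zfp692, Zfp612 and Zfp414 passed without any 1 of the 6 mice.

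The other 7 calls in WSB against B6 depended on single mice. The log2 fold change was -1.20 (adjusted p = 0.0234) for Zfp970, -0.58 (adjusted p = 0.0227) for Zfp772, -0.53 (adjusted p = 0.0495) for Zfp131, 0.40 (adjusted p = 0.0350) for Zfp239, 0.94 (adjusted p = 0.0182) for Zfp949, 0.73 (adjusted p = 0.0473) for Zfp658 and 0.83 (adjusted p = 0.0464) for Zfp105, all by limma. Zfp949 passed in 2 of the 6 fits without 1 mouse (without B6 replicate 1 or WSB replicate 3). Zfp970 passed only without B6 replicate 3, Zfp772 and Zfp131 only without WSB replicate 1, and Zfp239 only without WSB replicate 2. Zfp658 and Zfp105 passed in none. Where a call in WSB against B6 was lost in this way, its adjusted p was 0.0501 to 0.143. Zfp970, a KRAB gene, has stretches of at least 150 bases that are 98% identical or more to 5 other genes, so its reads may be shared among copies.

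Between C3H and B6, 10 Zfp genes passed, 2 higher and 8 lower in C3H. This is 4.08%, beside 4.64% of the 20602 genes tested (2.38% higher and 2.26% lower in C3H). An unadjusted p under 0.05 was reached by 72 members, which is 29.4% beside 24.1% of all genes. The values did not overlap in 73 members, which is 29.8% beside 28.9% of all genes, 29 of them higher in C3H and 44 lower. Lower calls made up 3.27% of the members. The count changed most when C3H replicate 2 was left out, and all 10 calls passed again in that fit. Without that mouse 44 members passed, 10 higher and 34 lower in C3H, which is 18.0% of the members beside 11.2% of all genes (4.97% higher and 6.22% lower). The count was 3, 3 and 4 without B6 replicates 1, 2 and 3, and 3 and 4 without C3H replicates 1 and 3. These are 1.22% to 1.63% of the members, beside 2.41% to 2.76% of all genes in the same fits.

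Zfp605 (chr5:110110092-110129794, plus strand) differed most among the 2 members higher in C3H. It had 3.05, 2.63 and 2.51 FPKM in B6, 7.17, 10.6 and 6.32 in C3H, and 3.23, 2.30 and 2.79 in WSB. All 3 C3H mice were above 6 FPKM while no mouse of the other strains was above 3.23, and the highest C3H value was that of replicate 2. The mean was 2.94-fold that of B6, a change of 1.49 on the log2 scale (standard error 0.19, limma adjusted p = 0.00541), and WSB was 2.90-fold below C3H, a change of -1.48 on the log2 scale (standard error 0.21, limma adjusted p = 0.00863). Both calls passed without any 1 mouse. Once GC trends were taken out of each library, the C3H difference was 1.68. The other was Zfp296, a partner of Klf4 in stem cells, at 0.823, 0.778 and 0.714 FPKM in B6, 1.66, 1.27 and 1.42 in C3H, and 0.649, 0.936 and 1.07 in WSB. Its change in C3H was 0.82 (adjusted p = 0.0413) on the log2 scale by limma, but it is a member through C3H alone, it passed only without C3H replicate 2, and it did not pass with the GC trend removed (0.67).

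Zfp109 (chr7:24227572-24237560, minus strand) was the member next to Zfp933 by its fall in C3H. It had 2.10, 1.60 and 2.05 FPKM in B6, 0.623, 0.651 and 0.580 in C3H, and 1.46, 1.38 and 1.89 in WSB. The C3H mice were all at most 0.651 FPKM and all other mice at least 1.38. The mean was 3.10-fold lower in C3H than in B6, a change of -1.48 on the log2 scale (standard error 0.17, limma adjusted p = 0.00337), and this passed without any 1 mouse. The difference was -1.47 with the GC trend removed. WSB was 2.55-fold above C3H, a change of 1.21 on the log2 scale (standard error 0.19, limma adjusted p = 0.0123), a call lost without C3H replicate 1 or 3, at adjusted p-values of 0.0518 to 0.0543.

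The remaining 6 members lower in C3H were Zfp811, at -1.20 (adjusted p = 0.0273), Zfp950, at -1.03 (adjusted p = 0.0417), Zfp157, at -1.004 (adjusted p = 0.0190), Zfp131, at -0.95 (adjusted p = 0.0179), Zfp867, at -0.78 (adjusted p = 0.0264), and Zfp870, at -0.75 (adjusted p = 0.0432), log2 fold changes by limma. All but Zfp131, a BTB zinc finger gene, carry the KRAB pattern. Zfp811 had 3.04, 3.08 and 2.999 FPKM in B6, 1.37, 1.70 and 0.864 in C3H, and 2.63, 2.52 and 2.58 in WSB. Zfp157 had 2.42, 2.18 and 1.89 FPKM in B6, 1.06, 1.17 and 0.857 in C3H, and 2.22, 2.36 and 2.10 in WSB. In both genes B6 and WSB lay close together and C3H below them. In these 6 the call was lost in 4 or 5 of the 6 fits, at adjusted p-values of 0.0564 to 0.138, and Zfp950, Zfp131, Zfp867 and Zfp870 passed only without C3H replicate 2. With the GC trend removed, Zfp811, Zfp157 and Zfp131 still passed, at -1.01, -0.78 and -0.68, while Zfp950, Zfp867 and Zfp870 did not, at -0.66, -0.58 and -0.62.

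Between WSB and C3H, 14 Zfp genes passed, 13 higher and 1, Zfp605, lower in WSB. This is 5.71%, beside 5.74% of the 20607 genes tested. By direction it is 5.31% higher and 0.408% lower in WSB, beside 2.61% and 3.13% of all genes. An unadjusted p under 0.05 was reached by 82 members, which is 33.5% beside 23.8% of all genes. The values did not overlap in 93 members, which is 38.0% beside 28.6% of all genes, with 66 higher in WSB (26.9% beside 14.2%) and 27 lower (11.02% beside 14.4%). Without C3H replicate 2 the count was 37, 33 higher and 4 lower, which is 15.1% of the members beside 9.71% of all genes (5.21% higher and 4.5% lower). It was 5 and 6 without C3H replicates 1 and 3, and 6, 6 and 8 without WSB replicates 1, 2 and 3. These are 2.04% to 3.27% of the members, beside 2.29% to 3.47% of all genes in the same fits.

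Of the 13 members higher in WSB, 4 passed without any 1 mouse. Zfp867, with the KRAB pattern and 10 finger matches, had 2.93, 3.06 and 2.96 FPKM in B6, 1.40, 1.92 and 1.80 in C3H, and 4.49, 3.37 and 4.20 in WSB. The strains did not overlap, with C3H lowest and WSB highest, and WSB was 2.36-fold above C3H, a change of 1.19 on the log2 scale (standard error 0.17, limma adjusted p = 0.00842). Zfp658, with the KRAB pattern and 21 finger matches, had 2.11, 2.45 and 2.63 FPKM in B6, 1.91, 1.86 and 1.77 in C3H, and 3.85, 5.02 and 3.40 in WSB. C3H was again lowest and WSB 2.22-fold above it, a change of 1.09 on the log2 scale (standard error 0.16, limma adjusted p = 0.00968). Zfp180 had 16.8, 13.6 and 15.5 FPKM in B6, 12.1, 11.8 and 12.7 in C3H, and 19.3, 18.6 and 22.2 in WSB. Its strains were ordered in the same way, and WSB was 1.65-fold above C3H, a change of 0.71 on the log2 scale (standard error 0.09, limma adjusted p = 0.00499). Zfp692, described above, was 1.52-fold above C3H, a change of 0.60 on the log2 scale (standard error 0.08, limma adjusted p = 0.00612).

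The other 9 were Zfp109, described above, Zfp949 at 1.06 (adjusted p = 0.0176), Zfp157 at 1.05 (adjusted p = 0.0120), Zfp870 at 0.83 (adjusted p = 0.0291), Zfp983 at 0.82 (adjusted p = 0.0368), Zfp825 at 0.79 (adjusted p = 0.0211), Zfp81 at 0.78 (adjusted p = 0.0427), Zfp93 at 0.64 (adjusted p = 0.0237) and Zfp239 at 0.40 (adjusted p = 0.0445), log2 fold changes of WSB over C3H by limma. Zfp949 had 5.72, 5.24 and 4.45 FPKM in B6, 3.97, 5.63 and 4.58 in C3H, and 10.3, 11.9 and 7.87 in WSB. Its WSB mice were all above the B6 and C3H mice, which overlapped. Zfp239, known as Mok2, passed in none of the 6 fits without 1 mouse and not with the GC trend removed (0.33). Zfp870, Zfp983, Zfp825, Zfp81 and Zfp93 passed only without C3H replicate 2, with adjusted p-values of 0.0616 to 0.153 in the other 5 fits. Zfp949 passed without C3H replicate 2 or WSB replicate 3, and Zfp157 without C3H replicate 2, C3H replicate 3 or WSB replicate 3, and over all lost calls of WSB against C3H the adjusted p was 0.0514 to 0.153. Zfp825 and Zfp93 each have 1 other gene that is 98% identical or more over at least 150 bases, so their reads may be shared. Over the 3 comparisons, 25 of the 245 members passed in at least 1 comparison and 220 in none. Of the 36 calls, 12 passed without any 1 mouse, 31 passed with the GC trend removed, and the 12 belong to 10 members. The matching shares over all genes were not worked out, so these counts give no comparison with genes at large.

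**Figure D1:**
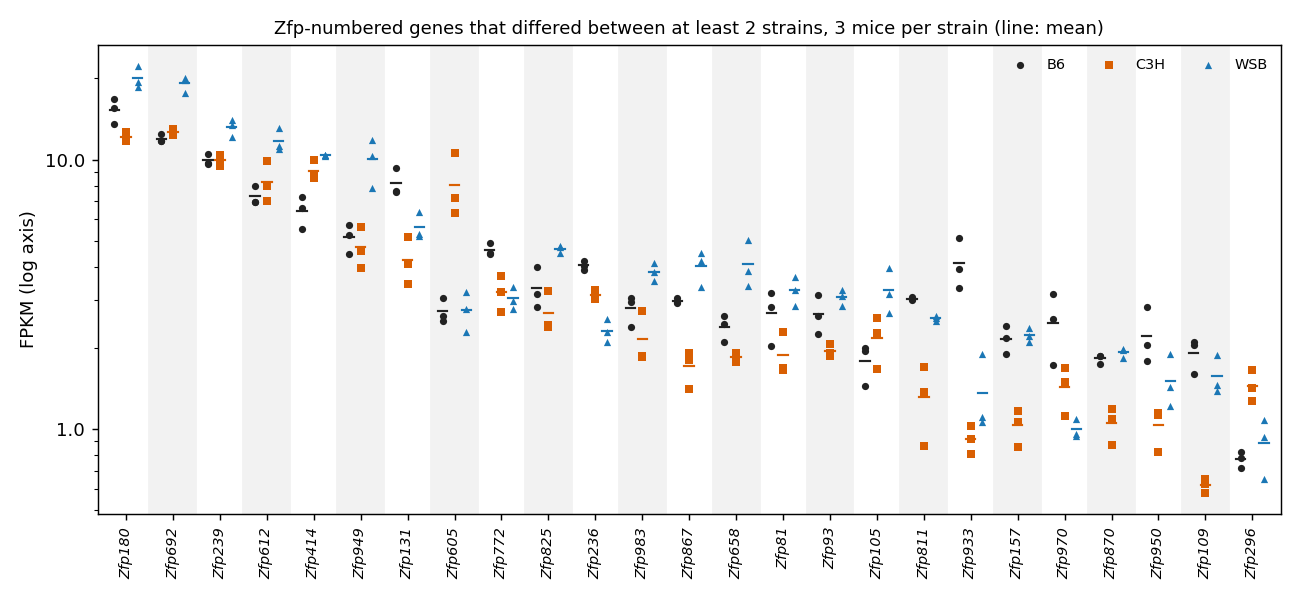
FPKM on a log axis of the 25 Zfp genes that passed the test in at least 1 comparison, ordered by mean level. Points are the 3 mice of B6, C3H and WSB and lines are means of the 3. In Zfp605 the C3H mice lie above all others, at 6.32 to 10.6 FPKM, and in Zfp933 the 3 B6 mice lie above all others at 3.34 to 5.10 FPKM.

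Beyond single genes, the 245 members had lower levels in C3H in the median, and this was uneven among the C3H mice. The median log2 fold change of C3H against B6 was -0.15 over the members and -0.004 over all genes tested, with 161 members (65.7%) and 50.4% of all genes under 0. For WSB against B6 the median was 0.05 over the members and 0.002 over all genes, with 38.4% of members and 49.7% of all genes under 0. For WSB against C3H it was 0.15 and 0.009, with 31.4% and 48.9% under 0. Within libraries, the median deviation of the members from the mean of the 9 mice, on the log2 scale, was -0.16 in C3H replicate 1 and -0.14 in C3H replicate 3 but 0.006 in C3H replicate 2. It was 0.10, 0.02 and -0.01 in B6 replicates 1, 2 and 3, and 0.10, 0.04 and 0.07 in the WSB mice. Over all coding genes of at least 1 FPKM the same medians ranged from -0.02 to 0.03. C3H replicate 2 thus lay within the B6 range. Without it the median C3H difference of the members was -0.21.

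**Figure D2:**
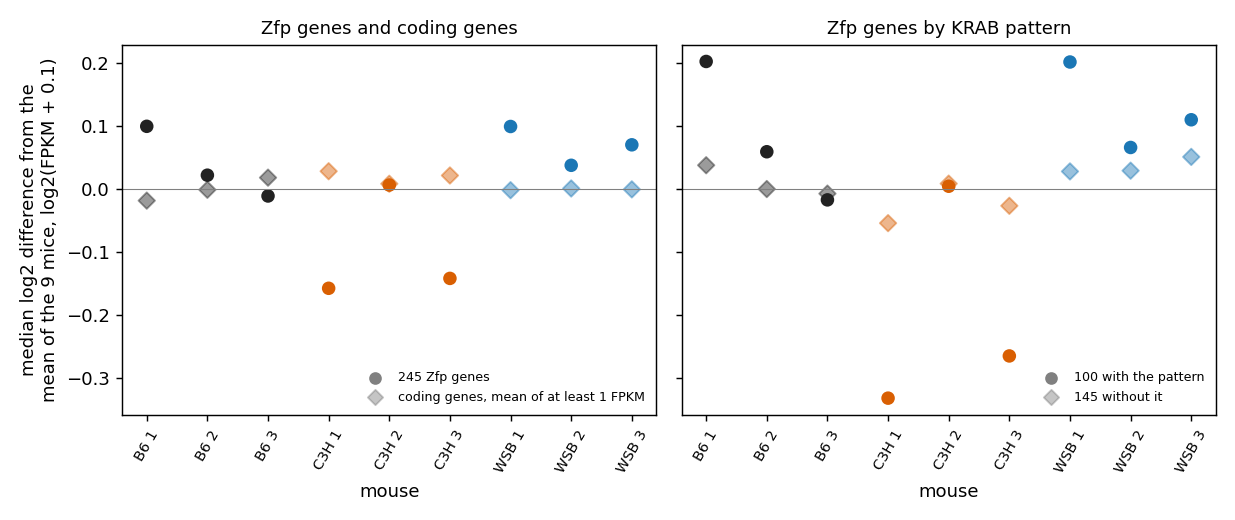
Median log2 difference of each mouse from the mean of the 9 mice, on log2(FPKM + 0.1), for B6 (black), C3H (orange) and WSB (blue). The left panel shows the 245 Zfp genes (circles) and coding genes of at least 1 FPKM (diamonds), the right panel the 100 Zfp genes with the KRAB pattern (circles) and the 145 without it (diamonds). C3H replicates 1 and 3 are low, at -0.33 and -0.26 for the KRAB genes, while C3H replicate 2 is at 0.005.

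The difference was larger in the median over the members with the KRAB pattern, a description with no test. In C3H against B6 their median log2 fold change was -0.28, with 84 of 100 under 0, while over the 145 members without the pattern it was -0.05, with 77 under 0. Of the 100, 6 passed in C3H against B6, all lower in C3H, and 4 of the 145 without the pattern, 2 higher and 2 lower, beside 4.64% of all genes (2.26% lower). Of those 6, Zfp933 alone passed whichever mouse was left out, and Zfp950, Zfp867 and Zfp870 did not pass with the GC trend removed. By library the KRAB group stood at -0.33 in C3H replicate 1, 0.005 in replicate 2 and -0.26 in replicate 3, at 0.20, 0.06 and -0.02 in the B6 mice, and at 0.20, 0.07 and 0.11 in the WSB mice. In WSB against C3H the medians were 0.32 with the pattern and 0.08 without it, and 0.17 and 0.04 with the GC trend removed.

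GC content moved with the same values. The median GC content was 43.0% in members with the KRAB pattern and 49.8% in those without it. Across the 245 members, which are not independent of each other, Spearman's rho between GC content and the log2 fold change was 0.66 in C3H against B6, 0.15 in WSB against B6 and -0.56 in WSB against C3H. Within libraries the rho between GC content and the deviation of a member was 0.67 and 0.70 in C3H replicates 1 and 3 and -0.17 in replicate 2, with -0.69 in B6 replicate 1 and -0.53 in WSB replicate 1. All points of a comparison share the same libraries. The 82 members of lowest GC content had a median C3H difference of -0.37, with 77 under 0, the 81 in the middle -0.17, and the 82 of highest GC content 0.17, with 61 above 0. After the dependence on GC content over all genes was taken out of each library, these 3 medians were -0.11, -0.10 and 0.05, that of the KRAB group was -0.06 with 65 of 100 under 0, and that of all members was -0.05. In WSB against C3H the median of all members was 0.09 after the removal, and in WSB against B6 it was 0.05. After the removal 7 members passed in C3H against B6, which is 2.86% beside 5.31% of all genes. In the same setting 19 passed in WSB against C3H, which is 7.76% beside 7.15% of all genes. By direction 15 were higher in WSB (6.12% beside 2.93% of all genes) and 4 lower (1.63% beside 4.22%). In WSB against B6, 15 passed, which is 6.12% beside 6.56%.

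**Figure D3:**
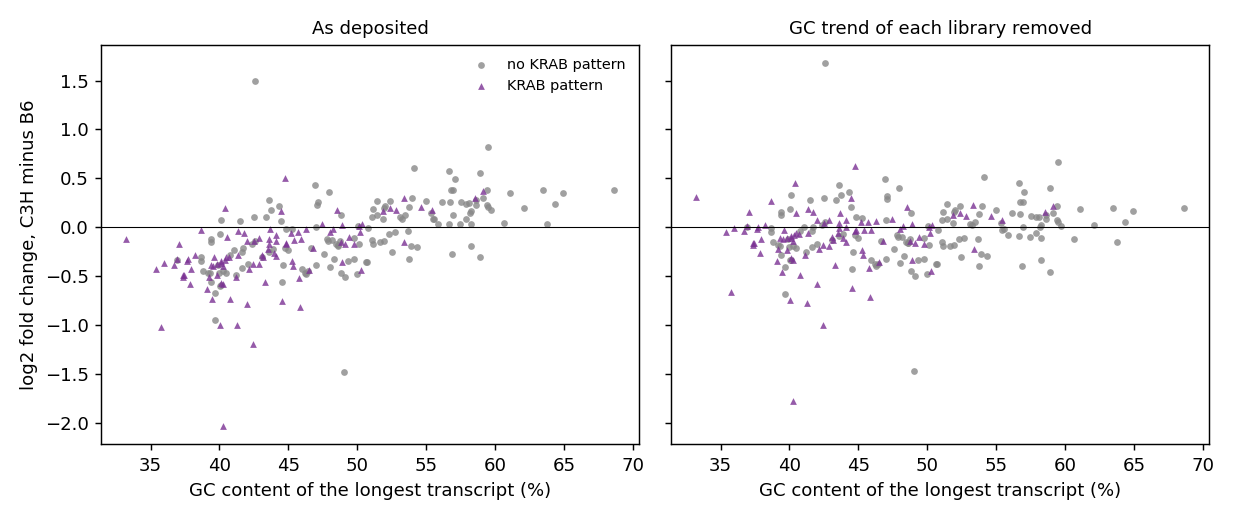
Log2 fold change of C3H against B6 for each of the 245 Zfp genes by the GC content of its longest transcript in percent, with the 100 genes of the KRAB pattern as purple triangles and the others as grey circles. The left panel shows values as deposited, where the 82 genes of lowest GC content have a median of -0.37. The right panel shows them after GC trends were taken out of each library, where that median is -0.11 and Zfp933, Zfp109 and Zfp605 remain far from 0, at -1.78, -1.47 and 1.68.

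The genes were clustered along the chromosomes. Taking as a cluster at least 3 members whose neighbouring spans are at most 0.5 Mb apart, 114 members fell into 18 clusters on 8 chromosomes, and 8 of the clusters, with 58 members, were on chromosome 7. Of the 25 members that passed in some comparison, 10 were in clusters. The KRAB pattern was found in 57.02% of clustered and 26.7% of other members. The median C3H difference was -0.14 in clusters and -0.17 outside them. In WSB against B6 the medians were 0.08 and 0.01, and 2 clustered members passed beside 10 of the other 131, where 5.9% of all genes passed. For C3H against B6 it was 4 and 6 (4.64% of all genes), and in WSB against C3H 8 and 6 (5.74% of all genes). The difference between clustered and other members was not tested.

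The medians of the clusters ran from -0.44 to 0.35 in C3H against B6, with 13 below 0 and 5 above, and from -0.19 to 0.23 in WSB against B6, with 17 above 0. The lowest in C3H was the chromosome 17 cluster from Zfp871 to Zfp414 (32771236 to 33631779), where 9 of 10 members have the KRAB pattern and the median GC content is 41.2%. Its median was -0.44, with 9 of 10 under 0 and Zfp811 and Zfp870 passing, and -0.64 without C3H replicate 2. With the GC trend removed it was -0.14. On the same chromosome the 14 members from Zfp160 to Zfp13 (21008903 to 23599487), with the lowest median GC content of any cluster, 38.0%, had a median of -0.32 with 12 under 0, and 0.003 with the trend removed. In WSB against B6 these 14 had a median of 0.21. The 4 KRAB genes of chromosome 9 from Zfp560 to Zfp846 had -0.41, and -0.18 after the removal.

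Clusters of high GC content lay on the other side. The 5 members of chromosome 7 from Zfp628 to Zfp580, with a median GC content of 63.5% and no KRAB pattern, had a median C3H difference of 0.35, with 5 of 5 above 0, and 0.16 with the trend removed. The 10 from Zfp553 to Zfp646 (127233061 to 127885996), which include Zfp771, had 0.18 with 10 of 10 above 0, and 0.12 after the removal, with 0.23 in WSB against B6. The 8 of chromosome 6 from Zfp398 to Zfp775 had 0.23, and 0.11 after the removal. None of the members in these 3 clusters passed. Nor did any of the 3 from Zfp12 to Zfp853 on chromosome 5, with a median GC content of 58.2%. Their median was 0.14, and 0.02 after the removal. With the GC trend removed the cluster medians in C3H against B6 ran from -0.28 (the 3 members of chromosome 7 from Zfp715 to Zfp719, 1 of which is Zfp658) to 0.16, and 10 of the 18 were below 0. In WSB against B6 the only cluster with a median below 0 was that of Zfp397, Zfp35 and Zfp24 on chromosome 18, at -0.19, with 3 of 3 under 0 and none passing.

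**Figure D4:**
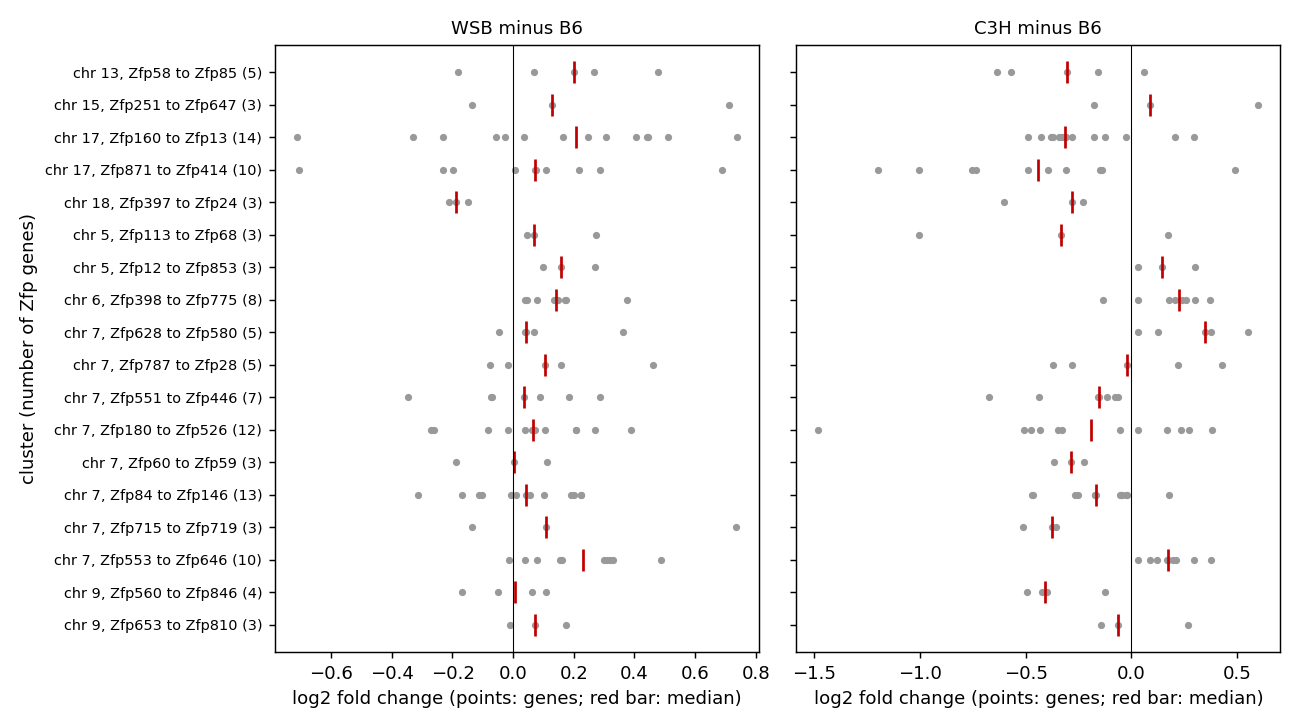
Log2 fold change of WSB against B6 (left) and C3H against B6 (right) for the members of the 18 clusters, 1 row per cluster, with grey points for genes and a red bar for the cluster median. In C3H the medians run from -0.44 to 0.35, and in WSB 17 of 18 are above 0.

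The chromosome 7 cluster from Zfp180 to Zfp526 (24081924 to 25227507) held 3 of the calls between WSB and C3H, Zfp180, Zfp109 and Zfp93, and its medians moved little with the GC trend. Its 12 members have a median GC content of 50.7%. None matched the KRAB pattern, which does not show that they lack a KRAB box. The median of WSB against C3H was 0.35, and 0.37 with the trend removed, while that of C3H against B6 was -0.19, and -0.22 after the removal. The members did not move together. The 6 genes at the left end were lower in mean in C3H than in B6 and WSB. Of these Zfp180 and Zfp109 are given above, and Zfp93 had 3.14, 2.63 and 2.26 FPKM in B6, 1.86, 2.06 and 1.91 in C3H, and 2.86, 3.12 and 3.27 in WSB. Zfp235 had 3.29, 3.78 and 2.93 FPKM in B6, 2.51, 2.52 and 2.75 in C3H, and 3.31, 3.12 and 3.83 in WSB, with every C3H mouse below every mouse of the other strains, but no test passed (log2 fold change of C3H against B6 -0.35 (adjusted p = 0.163), limma). Zfp108 had 1.68, 1.91 and 1.81 FPKM in B6, 1.16, 1.80 and 0.890 in C3H, and 2.12, 2.19 and 1.97 in WSB, where C3H replicate 2 lay with B6.

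Zfp61, which follows Zfp93, had 3.48, 3.88 and 3.83 FPKM in B6, 3.69, 3.26 and 3.85 in C3H, and 4.36, 4.46 and 4.72 in WSB, with B6 and C3H overlapping and WSB above both, and passed in no comparison. On its right the order was different. Zfp94 had 3.37, 3.05 and 2.66 FPKM in B6, 4.12, 3.22 and 3.70 in C3H, and 2.47, 2.34 and 2.70 in WSB. In mean WSB was lowest and C3H highest here, opposite to Zfp93 on the other side of Zfp61, with a log2 fold change of WSB against C3H of -0.53 (adjusted p = 0.0607) by limma, which did not pass. Zfp428, Zfp575 and Zfp574 had log2 fold changes of C3H against B6 of 0.23, 0.38 and 0.17, and 0.05, 0.25 and 0.02 with the GC trend removed, and none passed. Zfp526, at the far end, had 2.86 ± 0.234 FPKM in B6, 2.92 ± 0.0836 in C3H and 2.69 ± 0.125 in WSB. Zfp109 and Zfp93 lie on opposite strands and differed in size of change, at -1.48 and -0.43 in C3H against B6.

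**Figure D5:**
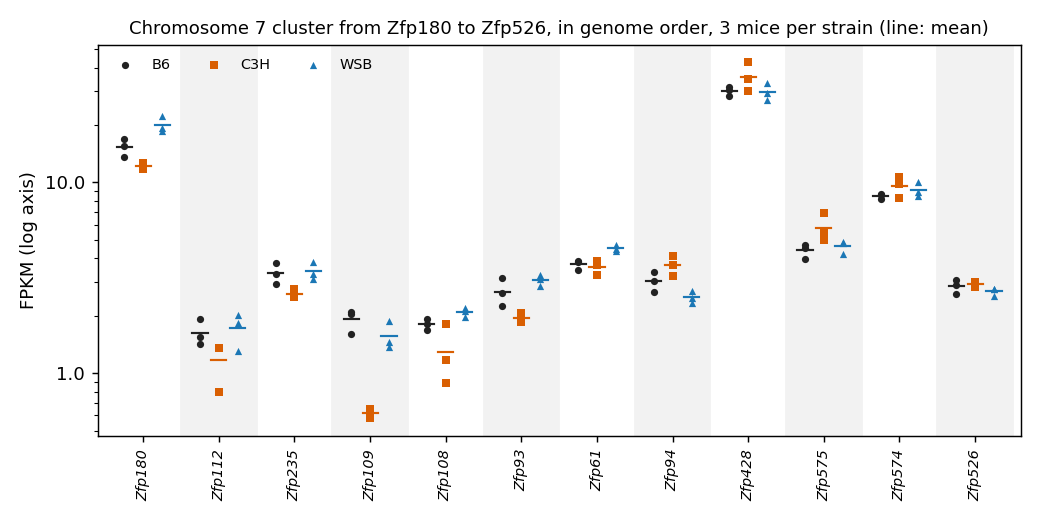
FPKM on a log axis of the 12 Zfp genes of the chromosome 7 cluster in genome order, with points for the 3 mice of each strain and lines for their means. The 3 C3H mice of Zfp109 lie at 0.580 to 0.651 FPKM, apart from all others, and in Zfp94 WSB is the lowest strain.

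Zfp genes with a role known outside strain differences were listed separately, and 23 of the 26 listed were members. None of the 23 passed in the main limma fits, with 4 (WSB against B6), 12 (C3H against B6) and 8 (WSB against C3H) at an unadjusted p under 0.05. These are 17.4%, 52.2% and 34.8% of the list, beside 20.4%, 24.1% and 23.8% of all genes, while 5.9%, 4.64% and 5.74% of all genes passed after adjustment. With voom weights on the recovered reads 1, 1 and 2 of the 23 passed. Zfp106 passed in C3H against B6 with the GC trend removed, at 0.29 on the log2 scale (limma adjusted p = 0.0438). With GC and length trends removed its change was 0.39 (limma adjusted p = 0.0209). Levels are given in the order B6, C3H and WSB. Among those that act on RNA or ribosomes, Zfp598, the sensor of collided ribosomes, had 13.5 ± 0.355, 15.9 ± 2.32 and 15.4 ± 2.05 FPKM. Zfp622, a factor of large-subunit maturation, had 8.46 ± 1.36, 10.2 ± 0.709 and 9.18 ± 0.386 FPKM, and Zfp207, which helps to assemble the spindle, had 13.3 ± 1.34, 11.5 ± 0.628 and 13.8 ± 1.31 FPKM. Of this list 7 of 8 were members, and Zfp36, which destabilizes AU-rich mRNAs, was at 0.620 FPKM over all mice. All 10 neural and developmental genes were members. Zfp335, needed in neural progenitors, had 4.14 ± 0.181, 5.43 ± 0.699 and 4.91 ± 0.488 FPKM, and Zfp423, a factor of cerebellar development, had 2.49 ± 0.163, 3.84 ± 1.001 and 3.69 ± 0.584 FPKM. Of 6 genes that guard imprints or silence retroelements, 4 were members. Zfp445 and Zfp57, which both maintain imprints, had 15.4 ± 3.14, 10.5 ± 3.03 and 15.5 ± 1.55 FPKM and 2.34 ± 0.0371, 1.33 ± 0.430 and 2.32 ± 0.470 FPKM. Every C3H value of Zfp57 was below every B6 value, at an adjusted p of 0.0910 (limma). Zfp809, which silences retroviruses, had 2.94 ± 0.314, 2.84 ± 0.536 and 2.90 ± 0.0209 FPKM, and Zfp932 had 4.35 ± 1.34, 2.97 ± 0.526 and 4.57 ± 1.07 FPKM. Zfp568 was at 0.511 FPKM over all mice and Zfp708 was listed at 0. Zfp110 and Zfp369, which bind the neurotrophin receptor p75, had 3.50 ± 0.358, 2.59 ± 0.574 and 3.32 ± 0.315 FPKM and 3.36 ± 0.0954, 2.62 ± 0.131 and 2.89 ± 0.134 FPKM.

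KRAB zinc finger proteins act through a shared set of chromatin proteins, and 23 genes of that machinery were listed as the other part of the pathway. In WSB against B6, 0 of 23 passed as higher and 1 as lower. In C3H against B6 it was again 0 and 1, and 1 of 23 is 4.35%, beside 5.9% and 4.64% of all genes in these comparisons, so the share was near that of genes at large. In WSB against C3H none passed by limma, with 5 at an unadjusted p under 0.05 (21.7% beside 23.8% of all genes) and 1 passing with voom weights. The 1 gene lower than in B6 was Hdac1 in both comparisons, a histone deacetylase of the NuRD complex. It had 7.91, 8.65 and 10.95 FPKM in B6, 5.69, 6.38 and 5.59 in C3H, and 5.24, 5.41 and 5.23 in WSB, so the B6 mice lay above all others. Against B6 it fell by 0.77 in WSB on the log2 scale (standard error 0.12, limma adjusted p = 0.0134) and by 0.62 in C3H (standard error 0.13, limma adjusted p = 0.0447), and these comparisons share the B6 mice. The WSB call of Hdac1 was lost without WSB replicate 1 or 3, at adjusted p-values of 0.0521 and 0.0509. Its C3H call passed only without C3H replicate 2, with adjusted p-values of 0.0511 to 0.158 in the other 5 fits. Trim28, the corepressor that KRAB boxes bind, had 34.6 ± 2.37 FPKM in B6, 42.5 ± 4.86 in C3H and 39.8 ± 1.42 in WSB and did not pass, nor did Setdb1, the histone methyltransferase that Trim28 recruits, at 6.53 ± 0.451, 6.13 ± 0.152 and 6.27 ± 0.319 FPKM. In C3H against B6 the medians were -0.16 over the 10 genes of the TRIM28 complex, -0.26 over the 4 of the HUSH complex and -0.077 over 9 further heterochromatin genes, beside -0.004 over all genes. With the GC trend removed they were -0.049, -0.091 and -0.16. In WSB against B6 the same medians were -0.042, 0.010 and 0.019, beside 0.002 over all genes.

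Some reads could not be tied to a single gene. Another gene at least 98% identical over at least 150 bases was found for 14 of the 245 members. Exon bases were shared with a gene on the same strand in 17 members and with one on the opposite strand in 59. Among those that passed, besides Zfp414, the overlap took 12.9% of the exon bases of Zfp296 and at most 8.03% of those of Zfp870, Zfp983, Zfp605 and Zfp236. Whether strand was used in counting is not given in the sources used here, so reads from opposite strands could not be told apart. B6 is the source of the mouse reference genome. Whether reads of C3H and WSB were assigned to these genes as fully as those of B6 was not tested.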

How the data were processed

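RNA from brain cortex of 9 male mice was sequenced. Per the labels and the methods of the study, reads were trimmed with Cutadapt, the processing notes of the submitters name STAR, HTSeq and DESeq2, and the authors deposited FPKM values per gene and mouse. Their versions, the build used for alignment and the use of strand are not given in the sources used here. The deposited FPKM values times gene length were whole multiples of a step per library (100% of values, tolerance 0.001), which returned the reads, 17651630 to 21562429 per B6 library, 19042306 to 19433751 in C3H and 16317439 to 17784118 in WSB. No per-sample column was left unused. Chi-square values per degree of freedom between libraries of a strain were 7.87 to 24.1, so none was a copy of another. Intervals on reads are not given, and SDs cover the mice of this sample only. As nothing says how the mice of a strain were related, p-values measure the spread between these mice.

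Strains were compared in pairs, as in the study, with limma 3.58.1 in R 4.3.3 on log2(FPKM + 0.1), keeping each gene that averaged 0.1 FPKM or more over both strains (lmFit, eBayes with a trend, two-sided, Benjamini-Hochberg over all genes tested, threshold 0.05). A fold change on this scale understates the change of low genes, and folds are ratios of strain means. The test was run first on simulated data. Fingers and the KRAB pattern (F, then S or T, 2 residues, E, W, 2 residues and L) were sought in the translated longest coding sequence of GENCODE M21 (GRCm38), which held 54409 of the 54532 genes and gave 53499 the same coordinates, and similar transcripts with blastn 2.17.0. A GC trend was a spline fitted to the deviations of each library.

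The members and the lists of genes were chosen with earlier results of these data known. The rule for named genes took up to 12 rises and 12 falls past the threshold per comparison, the 5 highest members, 3 genes on each side of the level limit, examples from clusters, and members of lists with known roles. Zfp235, Zfp108, Zfp61, Zfp94, Zfp575, Zfp574 and Zfp526 were named as examples of the chromosome 7 cluster after their values were seen, and Hdac1, Trim28 and Setdb1 from the list of chromatin genes. Alternatives were other pseudocounts and filters, other scalings, all strains in 1 fit, no trend, voom weights on the recovered reads, the replicate number as a block, taking out trends with GC, or with GC and length, coding genes alone, a wider cluster gap, and leaving out each mouse. The use of GENCODE in place of a protein table, and medians of gene groups with the GC trend removed, were chosen after seeing the data.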

Additional observations from a re-analysis of the deposited data

Results flagged for a closer look

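The WSB effect and the C3H effect, each taken against B6, differed in 14 of the 245 Zfp genes by the direct test of WSB against C3H (limma with Benjamini-Hochberg adjustment over all genes tested, 3 mice in each strain). This is 5.71% of the members beside 5.74% of all genes tested. The WSB effect was above the C3H effect on the log2 scale by 1.21 for Zfp109, 1.19 for Zfp867, 1.09 for Zfp658, 1.06 for Zfp949 and 1.05 for Zfp157. The difference was 0.83 for Zfp870, 0.82 for Zfp983, 0.79 for Zfp825, 0.78 for Zfp81, 0.71 for Zfp180, 0.64 for Zfp93, 0.60 for Zfp692 and 0.40 for Zfp239. It was -1.48 for Zfp605, where C3H was the strain apart. All 3 WSB mice lay on 1 side of all 3 C3H mice in each of these genes. The calls of Zfp605, Zfp692, Zfp180, Zfp658 and Zfp867 passed whichever mouse was left out, and that of Zfp239 passed in none of these 6 fits. Those of Zfp870, Zfp983, Zfp825, Zfp81 and Zfp93 passed only when C3H replicate 2 was left out.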

How the results depend on the processing

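None of the 36 called fold changes reversed under any alternative run, and 172 of their 684 values under alternatives no longer passed. The 36 were chosen by passing on these same mice, so a reversal was unlikely in advance. Rescaling by median ratios between libraries used the same factor of 1.01 in all 9 libraries. Its values, counted in the 684, could therefore hardly differ from the main ones. In WSB against B6, 12 members passed, 6 without a trend in eBayes and 4 to 8 without each mouse. Over all genes 1224 passed, 946 without a trend and 651 to 825 without each mouse. In C3H against B6, 10 passed, 6 with no filter, 19 with all 3 strains in 1 fit and 3 to 44 without each mouse. Over all genes 956 passed, 766 with no filter, 1390 with all 3 strains in 1 fit and 498 to 2301 without each mouse. In WSB against C3H, 14 passed, 25 with all 3 strains in 1 fit, 32 with voom weights, 22 with GC and length trends removed, 22 over protein-coding genes alone and 5 to 37 without each mouse. Over all genes 1182 passed, 1682 with all 3 strains in 1 fit, 1797 with voom weights and 1474 with GC and length trends removed. The number was 1088 over protein-coding genes alone and 475 to 2002 without each mouse. Both highest counts of members that involve C3H, 44 and 37, came without C3H replicate 2. The cause of these shifts was not tested. Of the 23 chromatin genes, 1 passed in WSB against B6, with 2 after removal of GC or of GC and length trends, and 0 to 1 without each mouse. In C3H against B6, 1 passed, with 0 at a pseudocount of 1, with no filter or without a trend in eBayes, and 0 to 3 without each mouse. In WSB against C3H, 0 passed by limma, with 1 under voom weights and 0 to 1 without each mouse.

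With the replicate number as a block, 7 members passed in WSB against B6, 3 in C3H against B6 and 7 in WSB against C3H, and 0 of the 23 chromatin genes passed in C3H against B6. Over all genes 754, 480 and 531 passed in these comparisons, in the same order. The replicate numbers did not pair the mice, since deviations of same-numbered mice had correlations of -0.157 to 0.037 over genes.

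Directions turned only in comparisons where the gene had not passed, for 5 of 39 such values. Zfp239 in C3H against B6 was -0.0056 with rescaling to total reads, -0.0067 with voom weights and -0.025 to 0.044 without each mouse. Zfp692 in C3H against B6 was -0.059 with the GC trend removed and -0.080 with GC and length trends removed. Without each mouse, Zfp605 in WSB against B6 ran from -0.10 to 0.14, Zfp157 from -0.042 to 0.13, and Zfp772 in WSB against C3H from -0.18 to 0.035. A gap of 1 Mb gave 21 clusters with 132 members in place of 18 with 114, and asking for 1 FPKM in every strain left 227 of 245 members.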
